A study of Mus musculus with 6 samples.

Results

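The signaling chain described below is made up of 9 genes: the glycogen synthase kinase 3 genes Gsk3a and Gsk3b, the collapsin response mediator (CRMP) genes Dpysl2, Dpysl3, Dpysl4, Dpysl5 and Crmp1, the ERK kinase gene Mapk3 and the kinase gene Akt1. They were chosen by gene symbol, and all 9 had a row among the 54532 genes of the count table and passed the filter on low counts. RNA came from the nerves labelled as sciatic of 3 control (WT) and 3 Dok6 mutant (Dok6 KO) mice at postnatal day 3, with 1 library per mouse. Per the study's methods, all mice were on a C57BL/6 background, and the mutants carried a germline deletion of Dok6 exon 3, made with EIIA-cre, which acts in the early embryo, so that the deletion was not limited to a cell type. The controls were littermates. The sexes were not distinguished in this experiment, per the study's methods, and any pooling of nerves per library is not given in the sources used here.

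GSK3 is a kinase that is active at rest and is inhibited when AKT phosphorylates a serine near its amino terminus. Its substrates in axons include the microtubule-associated proteins MAP1B and Tau and the CRMPs, cytosolic proteins that bind tubulin and relay semaphorin signals in growing axons. ERK, of which Mapk3 encodes ERK1, is the last kinase of the RAS, RAF and MEK cascade that neurotrophin receptors switch on, and in the peripheral nerve it acts in both axons and Schwann cells. These proteins are regulated largely by phosphorylation, which a count of transcripts does not measure.

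The 6 libraries held between 17699904 and 18678170 counts, and 3 counts, taken as the floor of detection, corresponded to between 0.155 and 0.172 CPM (counts scaled to the size of the library, with TMM factors). Dok6, the targeted gene, was at 17.8, 11.9 and 17.5 CPM in control mice and at 7.25, 5.77 and 7.14 CPM in the mutants, with a log2 fold change of -1.23 (SE 0.20, adjusted p = 0.0118 in edgeR's quasi-likelihood test). Counts are per gene and include exons outside the deletion. The label of the tissue was checked against markers. Myelinating Schwann cell markers, which define this nerve, summed over 10 genes to 212 to 1103 CPM in the controls. By contrast, the glycine transporter gene Slc6a5 and the inhibitory vesicular transporter gene Slc32a1, both genes of central inhibitory neurons, were at 224 to 263 and 159 to 181 CPM in the controls, and the astrocyte gene Gfap was at 227 to 489 CPM. Summed over their lists, 14 central neuron markers, some of them shared by all neurons, reached 1948 to 2443 CPM and 8 astrocyte markers 2534 to 3047 CPM in the controls, above the myelinating Schwann cell sum in all 3. The label of sciatic nerve is thus in doubt for these libraries, and every level and fold change below is that of the library as labelled, whose tissue was not settled. Of the other marker lists, 4 of 8 fibroblast, 4 of 9 Schwann lineage and 3 of 8 endothelial genes tested were called higher. So were 2 of 8 cycling cell and 1 of 9 microglia and macrophage genes. Of all genes tested, 8.62% were called higher and 6.01% lower. The microglia and macrophage list, at 11.1%, lay near that share. Called lower were 4 of 5 erythroid genes, and 0 of 8 astrocyte and 0 of 8 oligodendrocyte genes were called.

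**Figure D1:**
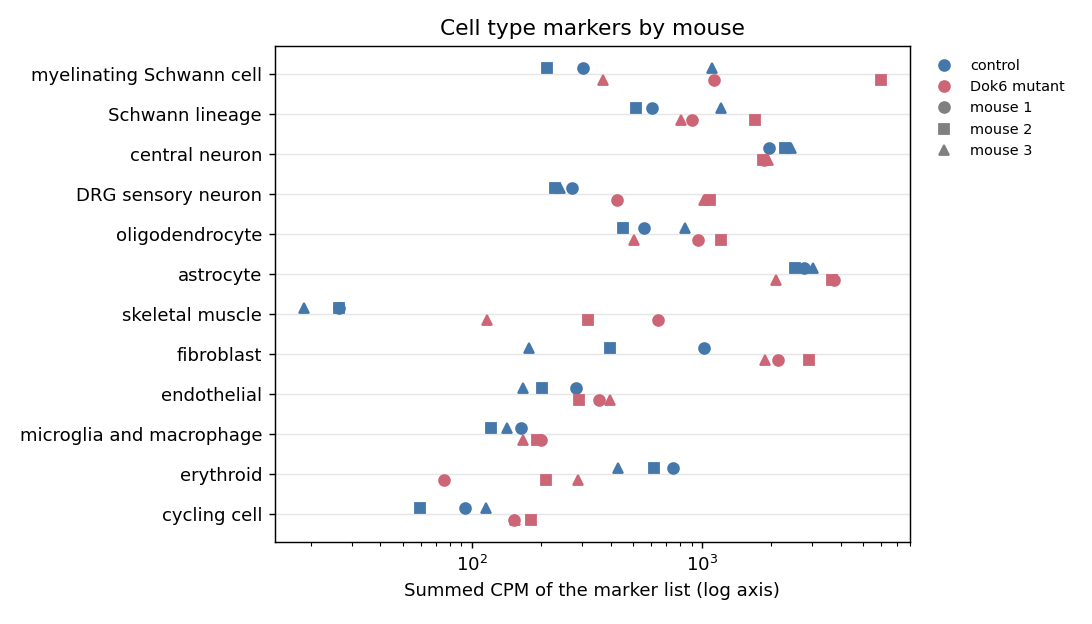
Summed CPM of each cell type marker list (horizontal log axis) in the 3 control and 3 Dok6 mutant mice, with 1 symbol per mouse number. DRG sensory neuron, skeletal muscle, fibroblast and cycling cell lists were higher in every mutant than in every control. So, by little, were the endothelial (at least 291 CPM against at most 283) and microglia and macrophage lists (167 against 164). Lower in every mutant were the central neuron list (1833 to 1924 CPM against 1948 to 2443) and the erythroid list (75.4 to 290 against 430 to 746). The myelinating Schwann cell list reached 5999 CPM in mutant mouse 2.

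The stretch below is shown because it holds the site through which MEK switches on the kinase whose transcript was called higher. It is the mouse coding strand of Mapk3 around the in-frame codons of the Thr-Glu-Tyr motif in the activation loop, with those codons in capitals. It is read 5′ to 3′ from the GENCODE M21 transcripts and lies within 1 coding exon of GRCm38 on the plus strand, at chr7:126763449-126763475.
Mapk3: ggctttctgACGGAGTATgtggccaca
The paralogues among the 9 genes share much of their coding sequence. Gsk3a and Gsk3b were 72.0% identical over the aligned coding sequence, with a longest shared run of 17 bases. Among the CRMP genes, identity ran from 62.2% between Dpysl4 and Dpysl5 to 74.4% between Crmp1 and Dpysl2, and no pair shared more than 29 bases in a row. With a minimum of 95% identity over 200 bases, no transcript of another gene matched a member except for Gsk3a, whose exons overlap 820 bases of the antisense gene 9130221H12Rik. That gene held 184 counts over the 6 libraries against 12832 for Gsk3a, and whether strand was used in counting is not given in the sources used here.

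One kinase transcript was higher and one CRMP transcript lower in the Dok6 mutants, and the rest stayed short of the threshold. At an adjusted p-value under 0.05, with edgeR's quasi-likelihood test fitted to the 17099 genes that passed the filter, Mapk3 was called higher, which is 1 of 9 members where 8.62% of all genes tested were called higher. Dpysl4 was called lower, 1 of 9 where 6.01% of all genes tested were called lower. The counts behind these shares, 1474 genes higher and 1028 lower, rested heavily on control mouse 2, without which edgeR called 56 higher and 12 lower. Gsk3a, Gsk3b and Crmp1 were also lower in every mutant than in every control without passing the test, so that 4 of the 9 genes had no overlap in this direction, against 18.7% of all genes tested, and 1 had none in the other direction, against 19.5% (38.2% of all genes tested in either direction). The median log2 fold change was -0.20 over the 9 genes and 0.01 over all genes tested. No member reached an absolute log2 fold change of 1, which 4.01% of all genes tested did with an adjusted p-value under 0.05, and none reached 2, which 1.19% did. In bulk tissue, fewer cells of a type and less RNA per cell cannot be told apart.

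**Figure D2:**
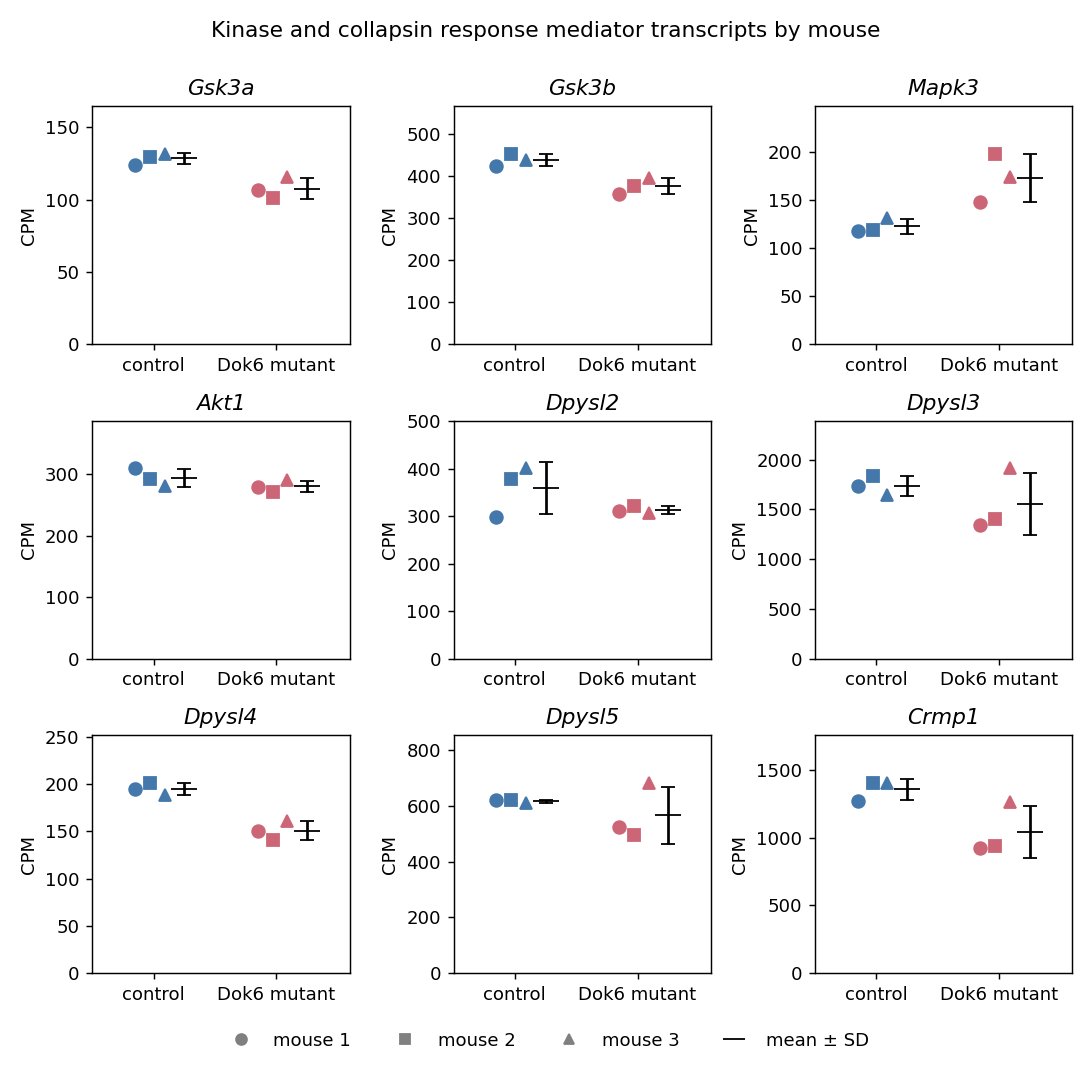
CPM of the 9 transcripts in each mouse (vertical axes start at 0), with the mean and SD of 3 mice in black. Mapk3 was higher in all 3 mutants, Gsk3a, Gsk3b, Dpysl4 and Crmp1 were lower in all 3, and for Dpysl3, Dpysl5 and Crmp1 mutant mouse 3 lay well above the other mutants.

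Mapk3 (ENSMUSG00000063065, chromosome 7 of GRCm38 from 126759601 to 126765819, plus strand) was at 118, 119 and 131 CPM in control mice and at 148, 198 and 173 CPM in mutant mice 1, 2 and 3. Every mutant lay above every control, and mutant mouse 2 was the highest. The level was 123 ± 7.72 CPM in controls and 173 ± 24.99 CPM in mutants (SD, n = 3 mice), a rise of 1.41-fold with a 95% interval from 1.19 to 1.68 (log2 fold change 0.50, SE 0.11, adjusted p = 0.0250 in edgeR's quasi-likelihood test). The call was lost without control mouse 1 (adjusted p = 0.0641), without control mouse 2 (adjusted p = 0.111) and without mutant mouse 2 (adjusted p = 0.0720), with log2 fold changes between 0.39 and 0.60 over the 6 fits of edgeR that each left out a mouse. The marker lists of other cells moved in the same mice. Of 12 DRG sensory neuron markers tested, 10 were called higher, and the list summed to 229 to 272 CPM in controls and to 427, 1082 and 1016 CPM in mutant mice 1, 2 and 3, with Mrgprd at 0 counts in control mouse 1. Of 10 myelinating Schwann cell markers, 5 were called higher, with sums of 1122, 5999 and 371 CPM in the mutants against 212 to 1103 CPM in controls. Of 10 skeletal muscle markers tested, 8 were called higher, with sums of 18.6 to 26.6 CPM in controls and 116 to 640 CPM in mutants. The part of these cells in the level of Mapk3 was not tested.

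The GSK3 pair was lower in parallel, below the threshold. Gsk3b (ENSMUSG00000022812, chromosome 16 from 38089001 to 38246084, plus strand), the more studied of the isoforms, was at 424, 453 and 438 CPM in control mice and at 358, 376 and 395 CPM in mutants. Gsk3a (ENSMUSG00000057177, chromosome 7 from 25228258 to 25237851, minus strand) stood at 124, 130 and 132 CPM in controls and at 106, 101 and 115 CPM in mutants. For both genes the groups did not overlap, and the highest mutant was mouse 3. Gsk3b in mutants was at 0.859 of the control level (95% interval 0.757 to 0.9751, adjusted p = 0.0961 in edgeR's quasi-likelihood test), and Gsk3a was at 0.837 (95% interval 0.742 to 0.946, adjusted p = 0.0568 in the same test). These intervals are not adjusted for the number of genes. DESeq2 gave adjusted p-values of 0.0502 for Gsk3b and 0.0430 for Gsk3a, so the call of Gsk3a depended on the tool, and in edgeR without mutant mouse 3 it was 0.0343. Per base of gene length the pair was at nearly the same level in each mouse: the ratio of Gsk3b to Gsk3a was 1.006, 1.032 and 0.981 in controls and 0.992, 1.098 and 1.011 in mutants. That ratio differed between the genotypes by 0.038 on the log2 scale (p = 0.60 in a two-sided exact permutation test over 20 splits, in which 3 mice against 3 cannot go below 0.10), and without mutant mouse 2 the difference was -0.0065.

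Akt1 (ENSMUSG00000001729, chromosome 12 from 112653821 to 112674884, minus strand), the kinase that inhibits GSK3, varied least of the 9 genes across the 6 mice, with a ratio of highest to lowest of 1.14. It was at 310, 292 and 281 CPM in controls and at 280, 271 and 290 CPM in mutants, and the groups overlapped. Its level in mutants was 0.953 of that in controls, with a 95% interval from 0.843 to 1.08 (adjusted p = 0.566 in edgeR's quasi-likelihood test), so a decrease by the size seen for Dpysl4 lies outside this interval. The paralogue Akt2 had a log2 fold change of 0.24 (adjusted p = 0.171).

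**Figure D3:**
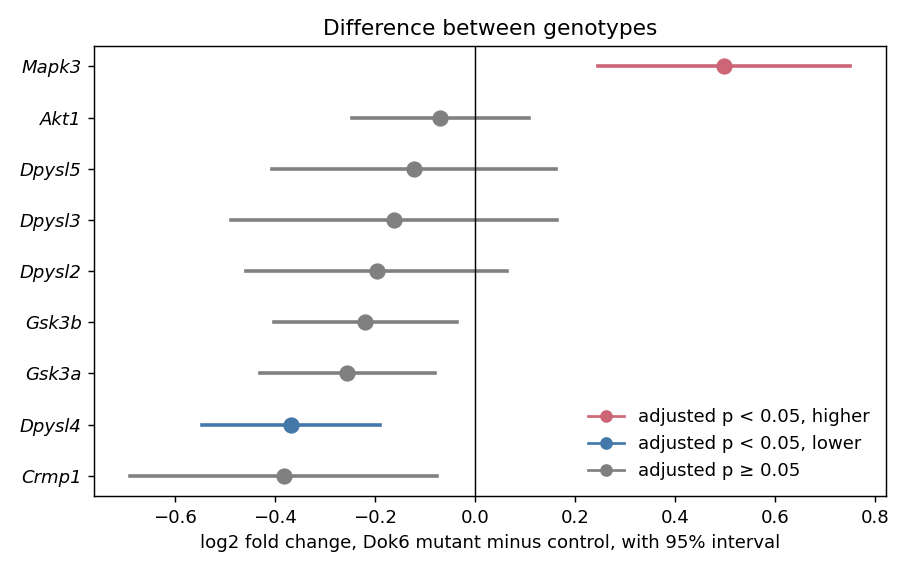
Log2 fold change of each transcript between Dok6 mutant and control libraries (horizontal axis) with its 95% interval from edgeR's quasi-likelihood fit. Mapk3 at 0.50 and Dpysl4 at -0.37 passed the threshold, and the intervals of Gsk3a, Gsk3b and Crmp1 lie below 0 although their adjusted p-values were 0.0568, 0.0961 and 0.0869.

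Among the CRMP genes, the scarcest transcript was the one called lower. Dpysl4 (ENSMUSG00000025478, chromosome 7 from 139086001 to 139102704, plus strand), which encodes CRMP3, was at 194, 201 and 189 CPM in control mice and at 150, 141 and 161 CPM in mutants. The mutants lay close together and well below every control. It fell from 195 ± 6.39 to 151 ± 10.3 CPM (SD, n = 3 mice), to 0.775 of the control level with a 95% interval from 0.685 to 0.876 (log2 fold change -0.37, SE 0.08, adjusted p = 0.0222 in edgeR's quasi-likelihood test). The call was lost without control mouse 2 (adjusted p = 0.103), mutant mouse 1 (adjusted p = 0.07205) or mutant mouse 2 (adjusted p = 0.0818), while the log2 fold change stayed between -0.42 and -0.32 over the 6 such fits. The central neuron list, with 2 of 13 tested genes called lower and 1 called higher, summed to 1948, 2284 and 2443 CPM in controls and to 1851, 1833 and 1924 CPM in mutants. Its part in the level of Dpysl4 was not tested.

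Crmp1 (ENSMUSG00000029121, chromosome 5 from 37241940 to 37292133, plus strand), a gene of differentiating neurons, was at 1271, 1408 and 1404 CPM in controls and at 927, 939 and 1265 CPM in mutants. All mutants were below all controls, but mutant mouse 3 missed the lowest control by little. The mutants were at 0.767 of the control level, short of a call (95% interval 0.620 to 0.949, log2 fold change -0.38, SE 0.13, adjusted p = 0.0869). DESeq2 (adjusted p = 0.0218) and edgeR without a filter on low counts (adjusted p = 0.0336) called it lower, as did edgeR without mutant mouse 3 (log2 fold change -0.54, adjusted p = 0.0137).

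Dpysl3 and Dpysl5 divided the mutants in the same way. Dpysl3 (CRMP4, ENSMUSG00000024501, on chromosome 18) was at 1732, 1838 and 1641 CPM in controls and at 1340, 1406 and 1912 CPM in mutants. Mutant mice 1 and 2 were below every control and mutant mouse 3 was above every control. Dpysl5 (CRMP5, ENSMUSG00000029168, chromosome 5 from 30711564 to 30799375, plus strand) was at 620, 621 and 611 CPM in controls and at 524, 494 and 683 CPM in mutants, again with mutant mouse 3 above and the other mutants below every control. The coefficient of variation of Dpysl5 was 0.823% among controls and 17.9% among mutants, and that of Dpysl3 was 5.70% and 20.1%. Their log2 fold changes were -0.16 (95% interval -0.49 to 0.16, adjusted p = 0.461) and -0.12 (95% interval -0.41 to 0.16, adjusted p = 0.526). Without mutant mouse 3 these were -0.34 (adjusted p = 0.0385) and -0.28 (adjusted p = 0.0475) in edgeR's quasi-likelihood test, so that this mouse decided both calls. The astrocyte list set the same mouse apart in the other direction, below every control. Its oligodendrocyte sum was below the other mutants but within the range of the controls. Astrocyte markers summed to 3741, 3653 and 2097 CPM in mutant mice 1, 2 and 3 against 2534 to 3047 CPM in controls, and oligodendrocyte markers to 956, 1204 and 504 CPM against 453 to 843 CPM. Their part in the levels of Dpysl3, Dpysl5, Crmp1 and Map1b was not tested.

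Dpysl2 (ENSMUSG00000022048, chromosome 14 from 66802864 to 66868688, minus strand) encodes CRMP2, the best known tubulin-binding substrate of GSK3 in the family. It was the member with the opposite spread, wide among controls and narrow among mutants. The controls were at 298, 378 and 401 CPM and the mutants at 311, 321 and 306 CPM, so that the mutants lay between control mouse 1 and the other controls. The coefficient of variation was 15.1% among controls and 2.46% among mutants. The mutants were at 0.873 of the control level with a 95% interval from 0.728 to 1.05 (adjusted p = 0.264 in edgeR's quasi-likelihood test), and the log2 fold change with 1 mouse left out ran from -0.31 without control mouse 1 to -0.11.

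Per kb of gene length, the level in control libraries was highest for Dpysl3, at 277 ± 15.8 CPM per kb (SD, n = 3 mice), which placed it within the top 0.474% of the genes tested. Crmp1 followed at 193 ± 11.1 CPM per kb, within the top 0.854%. Dpysl5 at 83.7 ± 0.689, Dpysl2 at 79.4 ± 12.005 and Akt1 at 71.9 ± 3.55 CPM per kb came next, and the values of Dpysl2 overlapped those of both neighbours. Mapk3 was at 54.3 ± 3.42 CPM per kb, above Gsk3b at 44.6 ± 1.51 and Gsk3a at 44.3 ± 1.34, which overlapped each other, and Dpysl4 was lowest at 32.5 ± 1.07 CPM per kb. In the mutants Mapk3, at 76.7 ± 11.1 CPM per kb, moved up the order to values that overlapped those of Dpysl5 at 76.9 ± 13.8, Dpysl2 at 69.2 ± 1.70 and Akt1 at 68.5 ± 2.29. The other places in the order of means were as in the controls.

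As shares of the family's summed CPM per kb, the CRMP genes ran in each mouse from Dpysl3 and Crmp1 through Dpysl5 and Dpysl2, whose order changed from mouse to mouse, to Dpysl4. Dpysl3 made up 43.3%, 42.2% and 39.4% in the control mice and 41.9%, 43.2% and 45.4% in the mutants. Crmp1 made up 28.2%, 28.8% and 30.004% in controls and 25.8%, 25.7% and 26.7% in mutants. The share of Crmp1 was thus lower in every mutant, mouse 3 included, while the shares of Dpysl3, Dpysl2, Dpysl4 and Dpysl5 overlapped between genotypes, and the shares were not tested. The sum over the 5 genes was 639, 695 and 664 CPM per kb in controls and 510, 519 and 672 CPM per kb in mutants, so that mutant mouse 3 stood among the controls. Relative to Dpysl2, the log2 ratios of Dpysl3, Dpysl5, Crmp1 and Dpysl4 differed between genotypes by 0.0069, 0.0485, -0.21 and -0.18, with p = 1.0, 0.60, 0.30 and 0.40 in the exact permutation test. For these ratios to Dpysl2 the p-value adjusted over the 7 ratios compared was at least 0.70.

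**Figure D4:**
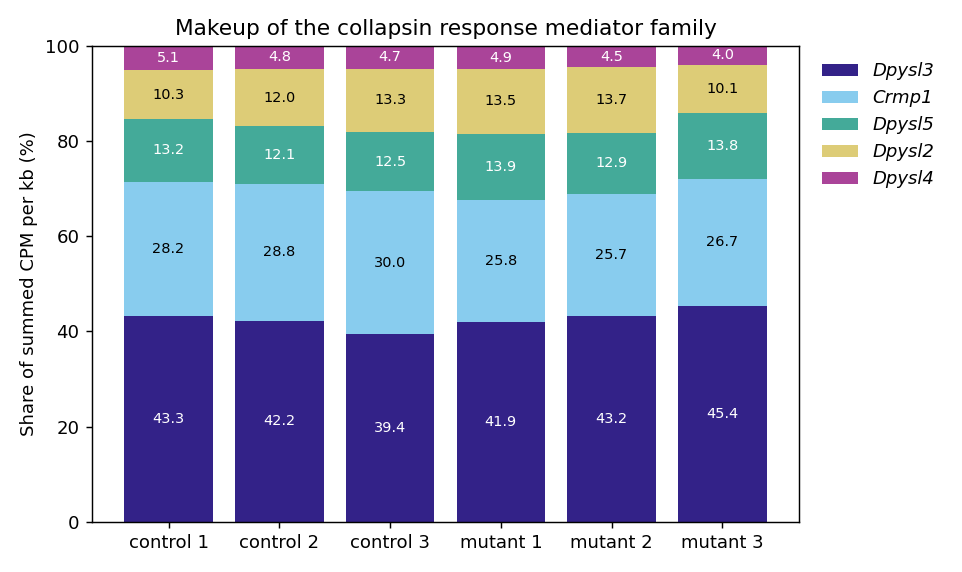
Share of each of 5 CRMP genes in the family's summed CPM per kb of gene length (vertical axis, percent), with 1 bar per mouse. Dpysl3 and Crmp1 made up most of the family in every mouse, and the Crmp1 share was between 25.7% and 26.7% in the mutants against 28.2% to 30.004% in the controls.

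The rest of the signaling chain was followed in 7 lists with 145 genes, of which 144 passed the filter on low counts. Of these, 16 were called higher and 13 lower, or 11.1% and 9.03%, against 8.62% and 6.01% of all genes tested. These shares of all genes are the reference for the counts of each list below. The median log2 fold change was -0.03. Without control mouse 2, only Egr1 kept a call, and 1 of the 29 called genes (Egr1) passed in all 6 fits that each left out a mouse. The counts without 1 mouse ran from 1 to 17 higher and from 0 to 21 lower.

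In the ERK cascade, from adaptors to kinases downstream of ERK, 4 of 27 genes were called higher and 2 lower, with a median log2 fold change of -0.09. Shc1, the adaptor between neurotrophin receptors and RAS, rose from 12.9, 7.56 and 6.85 CPM in controls to 22.9, 27.3 and 29.2 CPM in mutants (log2 fold change 1.54, SE 0.24, adjusted p = 0.0108 in edgeR's quasi-likelihood test). Map2k1, which encodes the MEK1 kinase that phosphorylates ERK, rose from 60.6, 65.3 and 70.9 CPM to 81.6, 87.5 and 83.2 CPM (log2 fold change 0.36, adjusted p = 0.0301 in the same test). Map2k2, the gene of MEK2, was at 135 to 139 CPM in controls and 125 to 139 CPM in mutants (log2 fold change -0.04, adjusted p = 0.726). Rps6ka3, an ERK-activated ribosomal S6 kinase, and Rras, a RAS-related GTPase, rose by 0.41 and 0.82 on the log2 scale. Frs2 and Grb2, adaptors of receptor tyrosine kinases, fell by 0.48 and 0.31 on the same scale, with adjusted p = 0.0314 and 0.0487. The kinase genes Araf and Braf had log2 fold changes of -0.28 and -0.23, and neither passed the test.

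Among genes that ERK activity induces, including its own feedback inhibitors, 5 of 18 were called higher and 1 lower, and the median log2 fold change was 0.21. Egr1, an immediate early transcription factor, was at 11.2, 11.1 and 10.6 CPM in controls and at 26.5, 35.7 and 45.5 CPM in mutants. Every mutant was far above every control (log2 fold change 1.71, SE 0.19, adjusted p = 0.00588), and leaving out any 1 mouse gave adjusted p-values of at most 0.0495 in edgeR. Etv1, an ETS transcription factor also used by proprioceptive neurons, rose by 1.17 on the log2 scale, Fos by 0.99, Spry4, a feedback inhibitor of the cascade, by 0.88 and Ier3 by 0.84. Dusp7, a phosphatase of ERK, fell from 57.3 to 58.3 CPM in controls to 40.3 to 43.6 CPM in mutants (log2 fold change -0.46, adjusted p = 0.0146). The feedback genes Dusp6, Spry2 and Etv5, with log2 fold changes of 0.21, 0.01 and 0.16, did not pass. Etv1 and Egr1 were lowest in mutant mouse 1 among the mutants, as was the DRG sensory neuron list, and the part of that list was not tested.

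Of the other MAP kinases and phospholipase C gamma genes, 1 of 15 was called higher and 1 lower. Mapk7, the gene of ERK5, rose by 0.36 on the log2 scale (adjusted p = 0.0311), and Mapk8, the gene of JNK1, fell by 0.38 (adjusted p = 0.0437). Mapk14, the gene of p38 alpha, and Plcg1 had log2 fold changes of 0.03 (adjusted p = 0.861) and 0.04 (adjusted p = 0.833), with overlapping groups. Of the PI3K and AKT list, 1 of 25 genes was called higher and 3 lower. Pik3cd, a catalytic PI3K subunit known from leukocytes, rose by 0.75, while Pik3cb, Phlpp2, a phosphatase that switches AKT off, and Rictor, a subunit of the mTOR complex that phosphorylates AKT, fell by 0.38, 0.35 and 0.43 on the log2 scale. Pik3cb and Phlpp2 kept the call in 0 of the 6 fits that each left out a mouse.

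The list of GSK3 regulators and priming kinases, which also holds substrate genes such as Gys1, gave 1 gene called higher and 4 lower of 22. Its median log2 fold change was -0.17. Gys1, the glycogen synthase gene that gave GSK3 its name, was at 18.2, 13.8 and 16.0 CPM in controls and at 29.9, 30.6 and 32.7 CPM in mutants (log2 fold change 0.96, SE 0.13, adjusted p = 0.00720). Dyrk1a, a kinase that primes Tau for GSK3, was at 159, 153 and 142 CPM in controls and at 97.3, 101 and 107 CPM in mutants (log2 fold change -0.58, SE 0.08, adjusted p = 0.00735). Axin1, the scaffold that holds GSK3 to beta-catenin, Csnk1e and the phosphatase gene Ppp2ca fell by 0.40, 0.40 and 0.32 on the log2 scale. Cdk5, the priming kinase of CRMP2, and its activator Cdk5r1 had log2 fold changes of -0.17 and -0.26 and did not pass. Without control mouse 2 the adjusted p of Gys1 was 0.0504 and that of Dyrk1a 0.0526.

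In the list of microtubule and transport genes taken as targets of GSK3, 0 of 20 genes were called higher and 1 lower. Whether GSK3 acts on each of their proteins was not tested, and the median log2 fold change was -0.14. Map1b, a microtubule-binding protein of growing axons, was at 2532, 2412 and 2574 CPM in controls and at 2148, 2299 and 2948 CPM in mutants. It had a log2 fold change of -0.02 (SE 0.13, adjusted p = 0.923). Mutant mouse 3 was the highest of all and mutant mice 1 and 2 the lowest, as for Dpysl3 and Dpysl5. Mapt, the gene of Tau, was at 2058, 2134 and 1661 CPM in controls and at 1449, 1301 and 2040 CPM in mutants (log2 fold change -0.29, SE 0.18, adjusted p = 0.288). Mapre1, a plus-end tracking protein, fell by 0.26 on the log2 scale (adjusted p = 0.0479). Of the partners of CRMPs, 4 of 17 genes tested were called higher and 1 lower. The semaphorin gene Sema3a, the ligand whose signal CRMP2 relays, fell by 0.48 on the log2 scale (adjusted p = 0.0241). Its receptor genes Nrp1 and Plxna2 rose by 0.33 and 0.34 (adjusted p = 0.0400 and 0.0447 in edgeR's quasi-likelihood test). Both kept the call in 0 of the 6 fits that each left out a mouse. The other receptor genes of the list, Nrp2, Plxna1, Plxna3 and Plxna4, had log2 fold changes of -0.25, 0.16, 0.39 and 0.21 and did not pass. The centrosomal gene Cdk5rap2 and the tyrosine kinase gene Fes rose by 0.60 and 1.06.

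**Figure D5:**
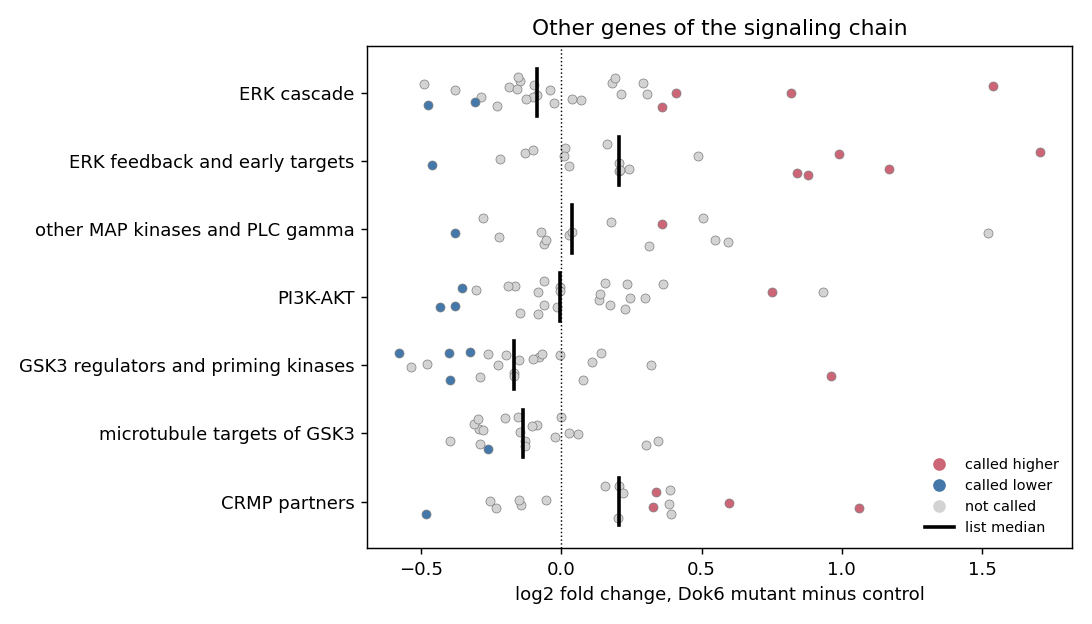
Log2 fold change (horizontal axis) of every tested gene of the 7 lists, with the list median as a black bar and genes with an adjusted p-value under 0.05 in color. The lists of ERK feedback targets and CRMP partners had medians of 0.21, and those of GSK3 regulators and microtubule targets had medians of -0.17 and -0.14.

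Over the 6 mice, the genes whose log2 CPM was most like that of Mapk3, among 10668 genes with a mean of at least 10 CPM, were Sorcs1, Tpd52 and Tppp3 (Pearson r from 0.997 to 0.998). For Gsk3b they were Sec23a, Map1lc3a and Gm42732 (r from 0.997 to 0.999), and for Dpysl2 they were Mrpl16, Zfp317 and Uqcrh (r from 0.986 to 0.993). These values describe 6 libraries that share the difference between the genotypes.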

How the data were processed

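RNA-seq libraries labelled as sciatic nerve from 3 control and 3 Dok6 mutant mice were analysed. The authors deposited raw counts per gene, as whole numbers that were not normalized. The libraries were made with a NEBNext Ultra kit, which the methods call Directional and the labels do not, and sequenced on an Illumina NovaSeq. The submitters' processing notes name the genome build mm10, and the aligner, the counting tool and the use of strand are not given in the sources used here. The authors also deposited a gene length in bases.

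Differences between genotypes were tested on the counts with edgeR 4.0.16 and R 4.3.3 (filterByExpr, TMM scaling, quasi-likelihood test, genotype as the only term) over all 17099 genes that passed the filter, with Benjamini-Hochberg adjustment over these. SEs and 95% intervals come from the F statistic. CPM are scaled by TMM, and CPM per kb use the deposited length. Ratios were compared by two-sided exact permutation tests. The smallest p of this design is 0.10. Alternatives were DESeq2 1.42.0, limma 3.58.1 with voom, other scalings and filters, a replicate block and leaving out each mouse.

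The members and gene lists were chosen with earlier results of these data known. The text names all 9 members, the called genes of each list (at most 5 in each direction, by adjusted p), genes whose proteins the study measured, and the 3 genes most like Gsk3b, Dpysl2 and Mapk3. Further uncalled list genes (Araf, Braf, Dusp6, Spry2, Etv5, Cdk5, Cdk5r1, Akt2, Nrp2, Plxna1, Plxna3 and Plxna4) and marker genes were named after their values were seen. Some genes of the lists, and 2 of the 7 ratios, are not reported here. Positions, exons and transcripts come from GENCODE M21 (GRCm38), and BLAST 2.17.0 was used to look for transcripts nearly identical to a member's.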

Additional observations from a re-analysis of the deposited data

How the results depend on the processing

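Each of the 9 members kept the sign of its log2 fold change in all 13 alternative fits. Mapk3 was called in 9 of the 13 (adjusted p from 0.00186 to 0.111) and Dpysl4 in 9 (0.00187 to 0.103), while Gsk3b, Dpysl2 and Akt1 were called in 0 of the 13 (unadjusted p = 0.0241, 0.122 and 0.398 in edgeR). DESeq2 called 3 members lower, where it called 1530 of all 17099 genes tested lower and 1815 higher, and edgeR without a filter called 2, where it called 1133 of 30965 lower and 1884 higher. An absolute log2 fold change above 1 or above 2 left 0 members in either direction. Leaving out each mouse gave 0 to 1 members called higher and 0 to 5 called lower, with 5 without mutant mouse 3 and 0 without control mouse 2, mutant mouse 1 or mutant mouse 2. Of the 144 list genes tested, 16 were called higher and 13 lower. DESeq2 called 22 lower, beside the same 1530 of all genes, a log2 fold change above 1 left 4 higher and 0 lower, and one above 2 left 0 and 0. Leaving out a mouse gave 1 to 17 higher and 0 to 21 lower. Apart from mutant mouse 3, each mouse left out moved both counts by over 1.5 times: to 7 and 5 without control mouse 1, 1 and 0 without control mouse 2, 9 and 6 without control mouse 3, 8 and 2 without mutant mouse 1, and 4 and 1 without mutant mouse 2. Such fits have fewer samples.

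Same-numbered mice did not deviate together (correlations across genes of -0.008, -0.168 and -0.243), so the numbers were not taken as pairs, and no mutant correlated best with the control of its own number. A replicate block gave 0 members called higher and 0 lower (adjusted p = 0.0582 for Mapk3 and 0.0703 for Dpysl4, with log2 fold changes of 0.49 and -0.37) and 5 list genes higher and 1 lower, where all genes tested gave 432 and 130. Without 1 mouse, all genes tested gave 56 to 1671 higher and 12 to 1233 lower, against 1474 and 1028 with all mice. The ratios of Dpysl3 and Dpysl5 to Dpysl2 changed sign without control mouse 3 (-0.12 and -0.044 on the log2 scale) and without mutant mouse 3 (-0.17 and -0.11). Pairs of libraries differed by more than sampling noise (chi-square per degree of freedom of at least 9.47). The labels do not say how nerves were pooled. The p-values of the fits set the difference between genotypes against the spread of these 6 libraries within each genotype. At this depth each member had at least 1855 counts in every library, so the spread between mice, not counting error, limits these comparisons.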
